A study of Mus musculus with 6 samples.

Results

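Klhl9, Sfi1, Cntln, Mpp5, Mfsd1 and Trim68 are 6 of 16906 mouse genes with a measured promoter window, selected on the Eed-KO minus WT difference in Rybp occupancy of their promoters in embryonic stem (ES) cells: theirs were among the lowest, with every probe of the window lower. They were covered by 191 of 474380 array probes. The members were chosen by these Eed-KO and WT values, so the Eed-KO minus WT differences below describe the members and test nothing.

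Rybp occupancy was measured by chromatin immunoprecipitation and hybridisation to promoter arrays (ChIP-chip) in ES cells of 3 genotypes: a constitutive knockout of Eed (Eed-KO), a constitutive knockout of Dnmt1 (Dnmt1-KO) and wild type (WT). All cultures had serum and the cytokine product ESGRO in the medium and were grown on irradiated embryonic fibroblast feeders or on gelatin, and the labels do not say which culture had feeders, which clone was used or how each allele was made; the share of feeder chromatin was not measured. Cells were fixed with 1% formaldehyde for 10 min, and anti-Rybp precipitate (IP, Cy5) and input DNA (Cy3) were hybridised together. The promoter set spans 2 array designs with different probes, so a given promoter was read on a single array for each genotype. With 6 arrays in all and no replicates, the precision is limited by the number of arrays and no p-value is given.

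Rybp is a subunit of variant forms of Polycomb repressive complex 1 (PRC1), which places ubiquitin on histone H2A. Eed belongs to the core of Polycomb repressive complex 2 (PRC2), which methylates lysine 27 of histone H3, and canonical PRC1 reads that mark through its Cbx subunits, whereas variant PRC1 with Rybp can reach chromatin without it. One variant PRC1 in ES cells carries the DNA-binding proteins Mga, Max and E2f6, which recognise E-box and E2F motifs. Dnmt1 copies DNA methylation onto the new strand at replication.

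The 6 genes have unlike roles. Klhl9 is a Kelch-repeat adaptor of Cul3 ubiquitin ligases, known from human cells for a part in mitosis. Sfi1 binds centrins and Cntln (centlein) is a centrosomal protein. Mpp5, also called Pals1, is a scaffold of the Crumbs complex in apical polarity. Mfsd1 is a transporter of the lysosomal membrane, and Trim68 is a tripartite motif protein with a RING domain of the ubiquitin ligase type.

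RefSeq promoter sequences (GRCm38.p6, 250 bases before to 50 bases after the start, printed 5′ to 3′ in the direction of the gene) were matched for 4 of the 6 members. They are shown to place the arrays' reading points and the motifs. The Klhl9 sequence holds 2 array probes, at 19 bp and -166 bp, both outside the Klhl9 window described below. Capitals mark the stretches covered by array probes in Klhl9 (minus strand, chr4:88722459-88722758), Cntln (plus strand, chr4:84884059-84884358) and Trim68 (minus strand, chr7:102687278-102687577), and each copy of the E-box CACGTG in Mfsd1 (plus strand, chr3:67582518-67582817).
Klhl9: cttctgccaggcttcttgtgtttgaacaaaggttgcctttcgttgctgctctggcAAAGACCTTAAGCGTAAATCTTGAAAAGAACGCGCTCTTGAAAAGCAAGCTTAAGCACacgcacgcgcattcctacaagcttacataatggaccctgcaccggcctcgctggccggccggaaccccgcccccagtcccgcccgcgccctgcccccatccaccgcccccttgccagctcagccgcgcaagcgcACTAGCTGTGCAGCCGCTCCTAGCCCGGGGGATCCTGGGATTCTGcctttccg
Cntln: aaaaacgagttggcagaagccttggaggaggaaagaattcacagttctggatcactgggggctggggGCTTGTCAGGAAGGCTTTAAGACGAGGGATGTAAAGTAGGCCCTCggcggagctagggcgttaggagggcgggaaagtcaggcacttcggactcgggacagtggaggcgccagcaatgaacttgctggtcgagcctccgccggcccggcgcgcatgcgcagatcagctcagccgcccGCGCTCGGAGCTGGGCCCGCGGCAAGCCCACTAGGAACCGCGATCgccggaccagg
Trim68: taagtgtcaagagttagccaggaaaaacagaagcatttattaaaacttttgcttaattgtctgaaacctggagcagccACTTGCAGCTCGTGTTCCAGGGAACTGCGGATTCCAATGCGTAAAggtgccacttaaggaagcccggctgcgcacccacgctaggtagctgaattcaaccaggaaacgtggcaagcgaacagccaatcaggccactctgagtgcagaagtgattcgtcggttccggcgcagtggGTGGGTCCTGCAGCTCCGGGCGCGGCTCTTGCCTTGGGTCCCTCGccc
Mfsd1: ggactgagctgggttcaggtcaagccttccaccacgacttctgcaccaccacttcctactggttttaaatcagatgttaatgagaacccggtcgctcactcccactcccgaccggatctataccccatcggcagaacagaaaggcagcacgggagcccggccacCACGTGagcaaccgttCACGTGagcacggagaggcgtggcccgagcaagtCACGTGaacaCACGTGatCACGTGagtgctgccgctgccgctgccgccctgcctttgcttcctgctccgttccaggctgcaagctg

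The Mfsd1 promoter held 5 copies of CACGTG, at -86, -70, -36, -26 and -18 from the start. The E-box is a motif of Max, Mga and many other basic helix-loop-helix proteins. Among 32851 RefSeq promoters of the same length, 7.15% held at least 1 copy and 5 promoters (0.0152%) held as many as Mfsd1. The other 3 matched members held 0 copies in this window. The E2F motif TTCCCGC was found once, in Cntln, and in 4.60% of all promoters. The core GCGCA of the nuclear respiratory factor motif occurred 3 times each in Klhl9, Cntln and Trim68 and 0 times in Mfsd1, against 7.70% of all promoters with 3 or more. The YY1 core GCCAT occurred in none of the 4 windows and in 40.5% of all promoters. Both strands were searched and overlapping matches counted, so a palindromic stretch can count on each strand. A match is a description of letters and not of a bound site.

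For Sfi1 and Mpp5 the array probes before the start with the values given below are shown, with the coordinates of the scanner file, of which neither the genome build nor the strand is stated.
Sfi1 probe at -84 bp (chr11:3093527-3093573): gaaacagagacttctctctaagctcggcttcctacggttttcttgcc
Sfi1 probe at -279 bp (chr11:3093716-3093775): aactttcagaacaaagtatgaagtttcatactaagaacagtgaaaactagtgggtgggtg
Mpp5 probe at -374 bp (chr12:79667464-79667508): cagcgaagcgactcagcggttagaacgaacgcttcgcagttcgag
Mpp5 probe at -259 bp (chr12:79667579-79667623): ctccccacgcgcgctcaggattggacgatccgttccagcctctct
Mpp5 probe at -22 bp (chr12:79667815-79667861): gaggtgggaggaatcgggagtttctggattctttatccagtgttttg

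Values are on a log2 scale: the level at a probe is IP over input, with the array's median set to 0, so that 0 is the typical probe and 1 is a 2-fold excess. Promoters were read as windows of 6 adjacent probes within 3 kb, placed where the 3 genotypes together had the highest mean, and the window's mean is the promoter's level. SD is over the 6 probes. The standard error (SE) of a difference is over the 6 probe differences and covers probe scatter, with no variation between cultures or hybridisations. A level of at least 1 is called bound. In the members the window was 651 to 1116 bp long (median 866 bp).

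At a level of 1 or more, 1 of the 6 members was bound in Eed-KO (background over all 16057 windows 5.94%), 5 were bound in Dnmt1-KO (47.4%) and all 6 in WT (5.3%). Of 851 WT-bound promoters, 76.6% kept a level of 1 or more in Eed-KO and 96.8% in Dnmt1-KO. Eed-KO had the lowest of the 3 levels at 6 of 6 members and at 45.4% of the WT-bound promoters. The choice of members by Eed-KO and WT values bears on the Eed-KO and WT counts and on this order. A promoter bound in WT or Eed-KO with every probe lower in Eed-KO is always bound in WT. These counts describe the members and test nothing. Dnmt1-KO had the highest at 4 of 6 members and at 91.5% of WT-bound promoters, and WT had the highest at Sfi1 and Trim68 and at 3.41% of WT-bound promoters. The median level over the members was 0.46 in Eed-KO (range 0.31 to 1.01), 1.85 in Dnmt1-KO (0.98 to 3.42) and 1.27 in WT (1.04 to 1.75). Over all windows these medians were 0.22, 0.95 and 0.28 in the same order of genotypes.

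**Figure D1:**
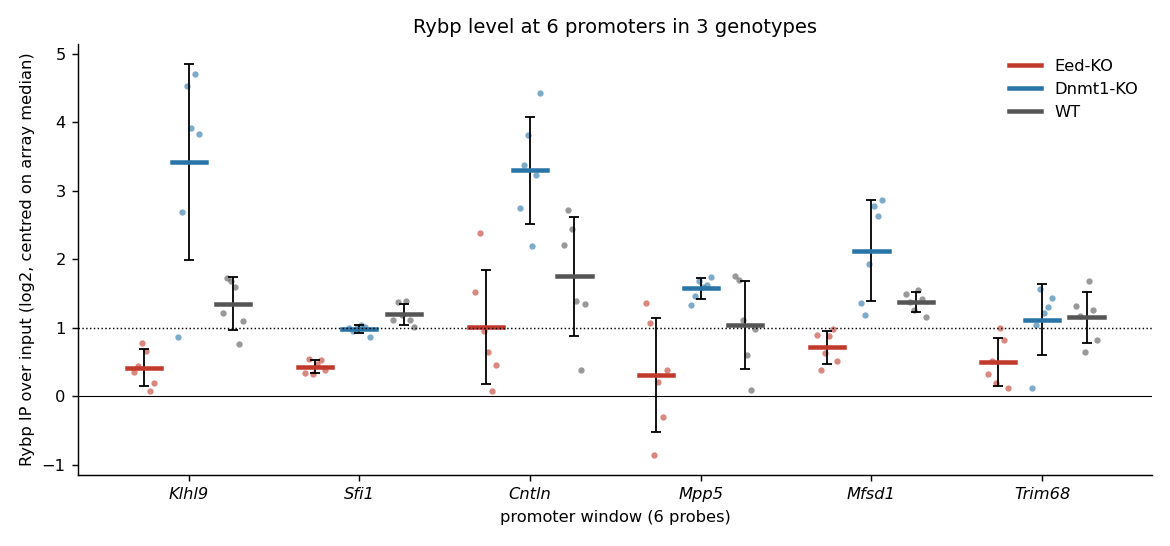
Rybp level (log2 IP over input, centred on the array median) at the 6 promoter windows. Points are the 6 probes of the window on 1 array, coloured bars the mean and black bars the SD over probes; the dotted line at 1 is the bound threshold. Cntln has the only Eed-KO mean on the threshold, at 1.01, and the Dnmt1-KO means run from 0.98 at Sfi1 to 3.42 at Klhl9.

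Klhl9, the Cul3 adaptor, had the lowest difference. Its window (array 1, chr4:88192770-88193620) averaged 0.42 ± 0.27 in Eed-KO, 3.42 ± 1.44 in Dnmt1-KO and 1.35 ± 0.39 in WT. Eed-KO minus WT was -0.93 ± 0.08 (SE), which is an IP over input ratio 47.6% below WT, and probe differences ran from -1.28 to -0.70. The window lay after the start, centred at 561 bp. In WT the raised level reached further into the gene: the 7 probes from 1042 to 2213 bp were at 0.39 to 1.34 in WT and at 0.07 to 0.53 in Eed-KO, lower at 7 of 7. At the 5 probes from 2378 to 2884 bp, WT lay near the array median, between -0.21 and 0.11, and Eed-KO lay below it, between -0.87 and -0.37. On the other side, from -166 to -1478 bp, Eed-KO was lower at every probe except that at -1356 bp, where Eed-KO minus WT was 0.34. At the lower probes it ran from -0.93 at -526 bp to -0.19 at -1115 bp. Further out, at the 12 probes from -2085 to -5370 bp, Eed-KO was lower at 4 and higher at 8. Their means were -0.04 in Eed-KO and -0.03 in WT. Over all 41 Klhl9 probes 32 were lower in Eed-KO.

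Klhl9 also had the highest Dnmt1-KO level of the 6. Dnmt1-KO minus WT was 2.07 ± 0.62, with 5 of 6 probes higher. The Dnmt1-KO summit, 4.71, was at 302 bp after the start, where Eed-KO was at 0.07 and WT at 0.77, the lowest WT probe of the window. The highest WT probe, 1.73, was at 830 bp. Its input in Dnmt1-KO was dim, at -3.22 against the array median, and 1 of the 6 window probes was not well above background in that channel. The scanner software set that flag with a multiplier of 13 on the Dnmt1-KO arrays and 2.6 on the others, so the flag is stricter in Dnmt1-KO.

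Cntln, the centrosomal gene on the same chromosome, was the member that reached 1 in Eed-KO, by a margin far smaller than its probe scatter. With normexp background correction Cntln was unbound in Eed-KO (0.80) and Sfi1 was the bound member (1.09). The Cntln window (array 1, chr4:84354991-84355879), centred at -110 bp, averaged 1.01 ± 0.83 in Eed-KO, 3.30 ± 0.78 in Dnmt1-KO and 1.75 ± 0.87 in WT. Eed-KO minus WT was -0.74 ± 0.18. The fall was uneven: the probe at -344 bp was at 2.38 in Eed-KO and 2.72 in WT, while the probe at -178 bp was at 0.96 in Eed-KO and 2.44 in WT. That second probe was dim in input, at -1.91 in Eed-KO and -0.80 in WT. Dnmt1-KO minus WT was 1.55 ± 0.46, with 6 of 6 probes higher, and its summit of 4.43 lay at 300 bp, past the WT summit at -344 bp. Cntln had 11 probes at 0.5 or more in Eed-KO, 16 in Dnmt1-KO and 15 in WT of 34.

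Klhl9 and Cntln windows shared a run of 13 letters, aaagtaggccctc, the longest between windows of any pair of members. It lies in the Klhl9 probe at 633 bp and the Cntln probe at -178 bp and in no other of the 474380 probes, and in 2 of the 32851 RefSeq promoters, Cntln and Gm31618. Eed-KO minus WT at these probes was -0.91 in Klhl9 and -1.48 in Cntln. Its last 11 letters, agtaggccctc, occur in 3 further probes, near Ttyh1, Mrps12 and Gucy2f, with Eed-KO minus WT of -0.11, -0.01 and -0.12. The run was found by looking among the members and carries no test.

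Sfi1, the centrin-binding gene, had the most even fall. Its window (array 2, chr11:3092895-3093775) averaged 0.43 ± 0.09 in Eed-KO, 0.98 ± 0.06 in Dnmt1-KO and 1.20 ± 0.16 in WT. Eed-KO minus WT was -0.77 ± 0.05, with probe differences between -0.93 and -0.59. The Eed-KO probes, 0.32 to 0.54, did not reach the WT probes, 1.01 to 1.39. At the probes printed above, the level was 0.53 in Eed-KO, 1.01 in Dnmt1-KO and 1.11 in WT at -84 bp, and 0.38 in Eed-KO, 0.87 in Dnmt1-KO and 1.01 in WT at -279 bp. Dnmt1-KO was lower than WT at 6 of 6 probes (-0.22 ± 0.06), and 2.47% of WT-bound promoters had a lower difference.

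The input signal at Sfi1 was high in every genotype. Over 17 probes from 2247 bp after the start to -6214 bp, the median input was 4.02 in Eed-KO, 3.77 in Dnmt1-KO and 3.95 in WT (log2 over the array median), or 16.2-fold, 13.6-fold and 15.5-fold in that order. Of the 227790 array 2 probes with at most 60% GC, 0.359% in Eed-KO, 5.85% in Dnmt1-KO and 0.327% in WT had input as high. From -6798 bp outward, the median input of 10 probes was 0.54 in Eed-KO, -1.11 in Dnmt1-KO and 0.64 in WT. The single low point in WT, -4.04 at -516 bp, was 3.65 in Eed-KO and 2.67 in Dnmt1-KO. Sfi1 window input differed by -0.01 ± 0.05 between Eed-KO and WT. A probe's signal sums all copies of its sequence, and the copy number of Sfi1 was not tested.

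**Figure D2:**
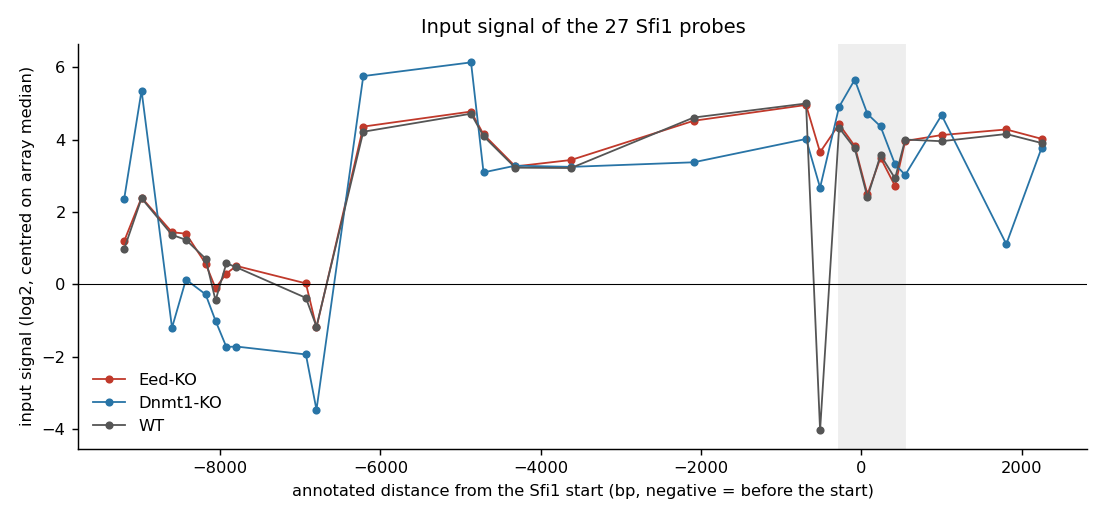
Input signal (log2, centred on the array median) of the 27 Sfi1 probes by annotated distance from the start in bp, with the window shaded and lines for Eed-KO, Dnmt1-KO and WT. Between -6214 bp and 2247 bp the median is 4.02 in Eed-KO, 3.77 in Dnmt1-KO and 3.95 in WT; from -6798 bp outward it is 0.54, -1.11 and 0.64 in the same order.

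Mpp5, the Crumbs complex scaffold, had the lowest Eed-KO level. Its window (array 2, chr12:79667211-79667861), centred at -318 bp, averaged 0.31 ± 0.83 in Eed-KO, 1.58 ± 0.15 in Dnmt1-KO and 1.04 ± 0.64 in WT. Eed-KO minus WT was -0.73 ± 0.25, the widest probe scatter of the 6. The probe at -374 bp was at -0.86 in Eed-KO and 1.11 in WT, a difference of -1.97, and its input was dim, at -1.71 in Eed-KO and -2.65 in WT. The other probes differed by -0.63 to -0.39, and the median of the 6 probe differences was -0.50. The mean of -0.73, by which Mpp5 is ranked below, thus rests in part on the probe at -374 bp. At -259 bp the level was 0.21 in Eed-KO, 1.60 in Dnmt1-KO and 0.60 in WT, and at -22 bp it was 0.38 in Eed-KO, 1.74 in Dnmt1-KO and 0.99 in WT. Dnmt1-KO minus WT was 0.53 ± 0.30, with 4 of 6 probes higher. The Dnmt1-KO level was nearly flat, from 1.34 to 1.74, where WT ran from 0.10 to 1.76.

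Mfsd1, the lysosomal transporter gene whose promoter holds the E-boxes, had a window (array 1, chr3:67670343-67671150) centred at 74.2 bp. It averaged 0.71 ± 0.24 in Eed-KO, 2.13 ± 0.74 in Dnmt1-KO and 1.38 ± 0.15 in WT. Eed-KO minus WT was -0.66 ± 0.07, and the Eed-KO probes, 0.39 to 0.98, did not reach the WT probes, 1.16 to 1.55. Sfi1 and Mfsd1 were the 2 members with every Eed-KO probe below every WT probe. Of the 1153 promoters bound in WT or Eed-KO this held for 3 (0.26%), these 2 among them. The choice of members bears on this count, which tests nothing. The probes beside the E-boxes, at -192 bp and 37 bp, differed by -0.99 and -0.63. At these 2 probes the difference lay mostly in the input. At -192 bp Eed-KO minus WT was 1.05 in input and 0.05 in IP, and at 37 bp it was 0.53 in input and -0.10 in IP. Dnmt1-KO minus WT was 0.75 ± 0.32 with 4 of 6 probes higher, and the 2 probes before the start differed by -0.12 at -326 bp and -0.20 at -192 bp, while the probe at 429 bp was 1.70 higher.

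Trim68, the tripartite motif gene, had a window (array 1, chr7:102560531-102561646) centred at -98.3 bp. It averaged 0.49 ± 0.35 in Eed-KO, 1.12 ± 0.52 in Dnmt1-KO and 1.15 ± 0.37 in WT. Eed-KO minus WT was -0.66 ± 0.08. Dnmt1-KO minus WT was -0.03 ± 0.31, with 3 of 6 probes higher. The probe at 515 bp carried the lowest difference in both knockouts, at 0.32 in Eed-KO, 0.13 in Dnmt1-KO and 1.32 in WT, and its Dnmt1-KO input was dim (-3.83). In the Trim68 window 2 probes were not well above background in the Dnmt1-KO input. With such probes left out, the Trim68 window held another run, with Eed-KO minus WT of -0.48 and 5 of 6 probes lower.

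**Figure D3:**
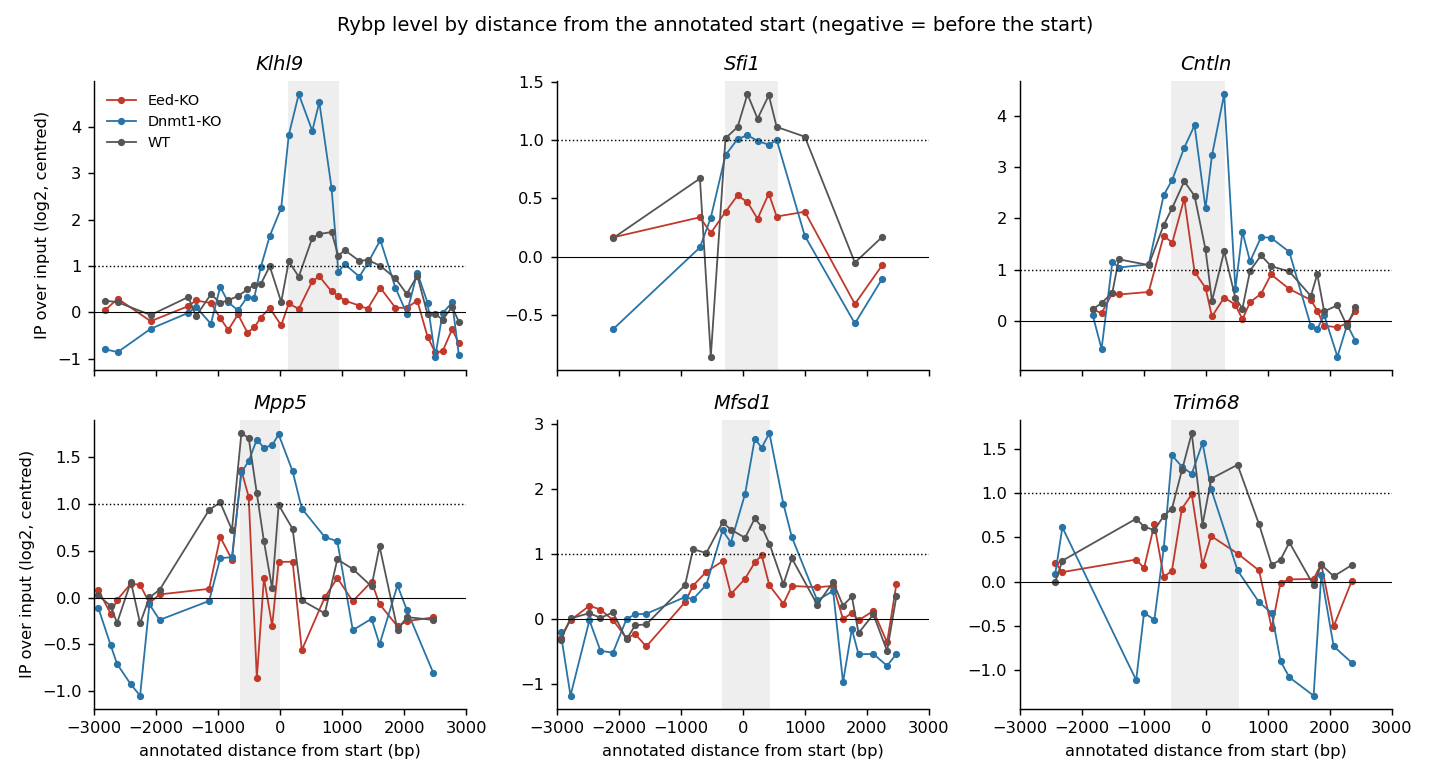
Rybp level (log2 IP over input, centred) of the probes within 3 kb of the annotated start of each gene, by distance in bp, with the window shaded and lines for Eed-KO, Dnmt1-KO and WT. The Dnmt1-KO summit at Klhl9, 4.71, lies at 302 bp and the WT summit, 1.73, at 830 bp; at Sfi1 the Dnmt1-KO line stays below WT throughout the window.

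In all, 22 of the 1153 promoters bound in WT or Eed-KO were lower by 0.5 or more in Eed-KO, a background of 1.91%, and 51 (4.42%) were higher; the 6 members are among the 22 by choice. With all arrays of a design set to the spread of the WT array these counts were 42 lower and 13 higher, and centred on the mode 37 and 37. None fell by 1 or more. All 6 probes were lower at 111 promoters (9.63%). By size among these, Klhl9 took rank 1, Sfi1 rank 3, and Cntln, Mpp5, Mfsd1 and Trim68 ranks 5, 6, 7 and 8. Ranks 2 and 4 were D1Pas1, a testis-expressed DEAD-box helicase gene (-0.87 ± 0.13; 1.35 in Eed-KO, 2.23 in WT), and the imprinted gene Mkrn3 (-0.76 ± 0.22; 0.57 in Eed-KO, 1.33 in WT). Just past Trim68 came Zfp770 (-0.65), Smap1 (-0.57), Umps (-0.56) and Slc33a1 (-0.55). Boll and Tmem109 were as low (-0.88 each) with 5 of 6 probes lower.

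**Figure D4:**
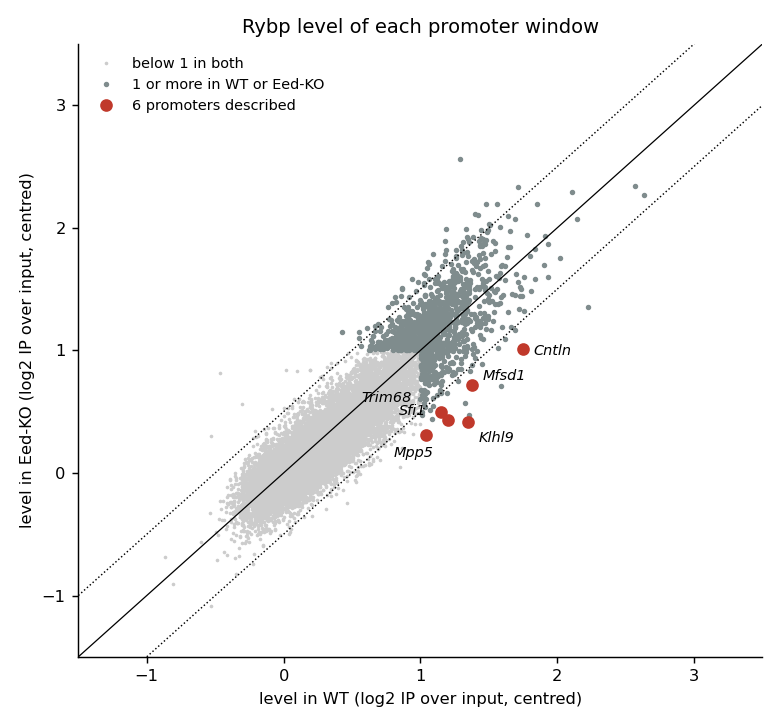
Level of each promoter window in Eed-KO (vertical axis) against WT (horizontal axis), both log2 IP over input, with the diagonal as a solid line and differences of 0.5 as dotted lines. The 6 named promoters lie below the lower dotted line, with Eed-KO levels of 0.31 to 1.01 and WT levels of 1.04 to 1.75.

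The IP and input channels were read apart, each centred on its array median. The IP signal in Eed-KO minus WT was -0.75 ± 0.15 at Klhl9, -0.79 ± 0.09 at Sfi1 and -0.69 ± 0.39 at Cntln. It was -0.46 ± 0.13 at Mpp5, -0.26 ± 0.10 at Mfsd1 and -0.39 ± 0.11 at Trim68. The input signal was higher by 0.40 ± 0.15 at Mfsd1, 0.28 ± 0.14 at Mpp5, 0.27 ± 0.09 at Trim68 and 0.19 ± 0.11 at Klhl9. At Cntln it differed by 0.06 ± 0.26 and at Sfi1 by -0.01 ± 0.05. At Mfsd1 the input term was larger in size than the IP term by less than their SEs together, and at Sfi1 the difference was in the IP channel. Over the 36 window probes IP was lower in Eed-KO at 33 (91.7%) and input higher at 27 (75%), against 49.1% and 52.4% of all probes. By the choice, IP over input was lower at all 36, so both shares follow in part from it and test nothing. The part of the input in these differences was not tested further.

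**Figure D5:**
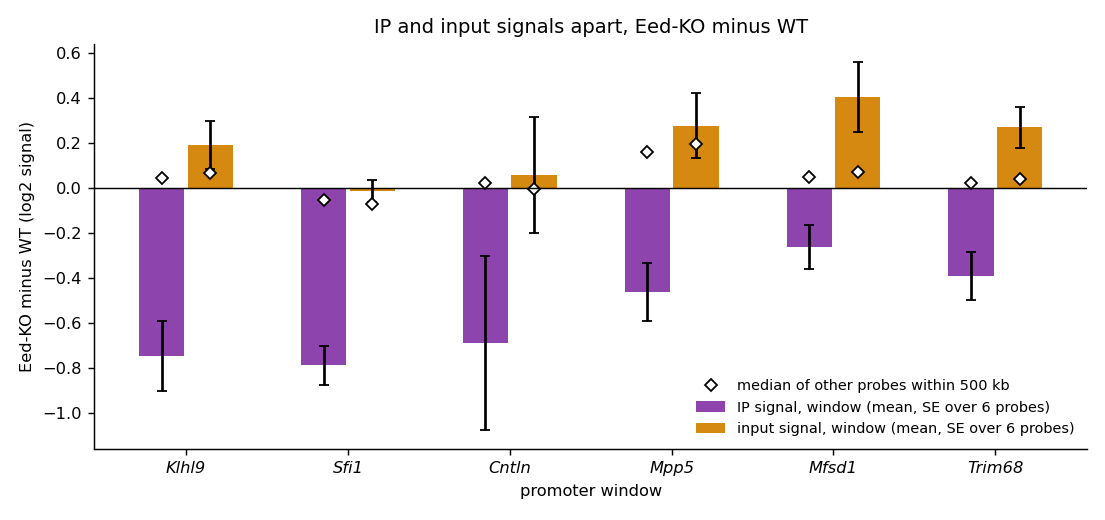
Eed-KO minus WT of the IP signal and of the input signal (log2, each centred on its array median) at the 6 windows; bars are means, error bars the SE over 6 probes, diamonds the medians of the other probes within 500 kb. IP bars run from -0.79 at Sfi1 to -0.26 at Mfsd1, and input bars from -0.01 at Sfi1 to 0.40 at Mfsd1.

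Around Mpp5 both channels were higher in Eed-KO over a wide stretch: the 284 other probes within 500000 bp had a median difference of 0.20 in input and 0.16 in IP, and of -0.03 in the ratio. At the other 5 members these medians lay between -0.07 and 0.07 in input and -0.05 and 0.05 in IP. The nearest other promoter windows on the same array, 11 in all and 8.26 to 338 kb away, had Eed-KO minus WT between -0.23 and 0.20, and 0 of the 11 were bound in WT or Eed-KO. Eif4enif1, 8262 bp from the Sfi1 window, had the lowest (-0.23 ± 0.07; 0.10 in Eed-KO, 0.34 in WT). Among the 155 member probes outside the windows, 110 (71.0%) were lower in Eed-KO, against 51.0% of all probes. Many of these probes adjoin the windows by which the members were chosen, so this share follows in part from the choice and tests nothing.

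The Dnmt1-KO comparison uses the same WT arrays as the Eed-KO one. Over the members the median Dnmt1-KO minus WT was 0.64 (range -0.22 to 2.07), and over all WT-bound promoters 0.997. Dnmt1-KO was higher by 0.5 or more at 4 members (80.1% of WT-bound promoters), 2 members were below WT (5.76%), and 0 members were lower by 0.5 or more (1.29%). All 6 probes were higher at 1 member, Cntln (60.3%). Since the members were chosen for low Eed-KO values, the choice bears on Dnmt1-KO minus Eed-KO too, and its values are a description. It was at least 0.5 at 6 of 6 members (78.3%), from 0.55 ± 0.04 at Sfi1 to 3.01 ± 0.59 at Klhl9, with a median of 1.34 against 0.99 over WT-bound promoters. All 6 probes were higher than in Eed-KO at 4 members (58.9%). The Dnmt1-KO arrays had a wider spread of probe levels, with SDs of 0.96 and 0.91, against 0.45 and 0.47 in Eed-KO and 0.41 and 0.42 in WT. Windows were placed by the unscaled mean of the 3 genotypes, so Dnmt1-KO weighed most in their placement. The median Dnmt1-KO minus WT over all promoters was 0.62 in windows and 0.06 with all probes of the gene. How far the placement raised the Dnmt1-KO levels was not tested. The Dnmt1-KO files also name another scanner (G2505C against G2505B) and extraction version (10.1.1.1 against 9.5.3.1), so genotype and scan cannot be told apart.

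With the arrays of a design set to 1 spread, that of the WT array, Dnmt1-KO minus WT turned negative at Cntln (-0.82), Mpp5 (-0.62) and Mfsd1 (-0.46), was 0.13 at Klhl9 and -0.75 at Sfi1, and the median over members was -0.65. Windows were placed anew on that scale, and those at Cntln and Mpp5 shared 4 of 6 probes with the windows above. The same scaling put the median difference of all windows at 0.05, against 0.62 unscaled, and 82.7% of WT-bound promoters then lay below WT. Dnmt1-KO minus Eed-KO on that scale had a median of 0.082 over the members and was 1.09 at Klhl9, 0.06 at Sfi1 and -0.078 at Cntln; removing the GC trend as well left a median of 0.0029, with Cntln, Mpp5 and Trim68 below 0. Klhl9 was the only member above WT at 1 spread, and removing the GC trend before scaling put it at -0.09. Eed-KO minus WT hardly moved, at -0.96 in Klhl9 and -0.69 in Trim68. With normexp background correction Klhl9 (-0.68), Sfi1 (-0.61) and Cntln (-0.65) remained at or past -0.5, and Trim68 (-0.49), Mfsd1 (-0.40) and Mpp5 (-0.31) did not.

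The probes of the windows held 47.8% (Trim68 and Sfi1) to 56.1% GC (Mpp5), with a median of 49.4% against 48.3% over WT-bound promoters and 46.9% over all. CpG pairs per 100 bases ran from 3.05 at Sfi1 to 8.19 at Mpp5 (median 4.32, against 3.47 over WT-bound promoters). The promoters nearest to the members' mean levels by Euclidean distance over the 3 genotypes were Rnf130 (0.244), Zfp770 (0.259) and Suclg2 (0.270), with Eed-KO minus WT of -0.41, -0.65 and -0.48.

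Other genes of the members' pathways were read from 5 lists, without the members. Of the Kelch-like and Cul3 genes, 38 had a window and 6 were bound in WT or Eed-KO (15.8%, against 7.18% of all windows). All 6 were bound in Eed-KO and 2 in WT. None of those 6 differed by 0.5 or more in Eed-KO, where 1.91% of all 1153 such promoters were lower and 4.42% higher. The median over the 38 was -0.06 with 26 below 0 (68.4%, against 59.5% of all windows). The lowest was Kbtbd4 (-0.52, unbound) and the highest Klhl10 (0.30). Of the 43 centrosome and centriole genes 33 were below 0 (76.7%), with a median of -0.15 against -0.04 over all windows, and 1 was bound. Their lowest was Cep89 (-0.49; 0.24 in Eed-KO, 0.73 in WT) and their highest Cetn1 (0.48; 0.37 in Eed-KO, -0.11 in WT), a centrin gene.

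The 28 apical polarity genes had a median of 0.03 and 13 below 0 (46.4%), with Crb1, which encodes a Crumbs protein, lowest (-0.26) and Mpp2 highest (0.30; 1.36 in Eed-KO, 1.06 in WT). The 31 lysosomal membrane and major facilitator genes had a median of -0.09 and 22 below 0 (71.0%). Their lowest was Glmp (-0.39; -0.08 in Eed-KO, 0.31 in WT), which encodes the accessory subunit of the Mfsd1 protein, and their highest was the window shared by Mfsd3 and Recql4 (0.27). The 51 tripartite motif genes had a median of -0.02 and 30 below 0 (58.8%), from Mid1 (-0.51; 0.37 in Eed-KO, 0.88 in WT) to Trim29 (0.46; 0.49 in Eed-KO, 0.03 in WT). In these 4 lists 1, 2, 2 and 5 windows were bound in WT or Eed-KO, counting centrosome genes first. Of these bound windows 0 differed by 0.5 or more, where 1.91% of all 1153 such promoters were lower and 4.42% higher. Mid1 was unbound.

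Promoter probes do not check a knockout. The windows of the targeted and precipitated genes had levels of 0.37 in Eed-KO, 1.89 in Dnmt1-KO and 0.52 in WT at Eed, -0.05, 0.91 and 0.03 at Dnmt1, and 0.47, 1.65 and 0.66 at Rybp, in the same order. ChIP-chip holds no RNA levels, so neither ES cell markers nor expression of the 6 genes was measured here.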

How the data were processed

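Each of the 6 deposited files holds 1 two-colour Agilent promoter array, with Cy3 (green) as input and Cy5 (red) as IP per the labels. Per the file headers, the processed signals are intensity values that Agilent Feature Extraction background-subtracted and dye-normalised, with version 9.5.3.1 and scanner G2505B for Eed-KO and WT and version 10.1.1.1 and scanner G2505C for Dnmt1-KO. The submitters' processing notes name version 9.5.3.1. The deposited value table is in log10 ratios, Cy5 over Cy3, and equals the scanner log ratios plus a constant for each array (to 0.001 at 99.0% or more of probes), whose origin is not stated. Its column medians on array 1 were -0.0317 (Eed-KO), -0.121 (Dnmt1-KO) and -0.025 (WT), and on array 2 -0.0316, -0.114 and -0.027.

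From the deposited intensity values, log2 of red over green was computed for non-control probes and centred on each array's median, with no loess or quantile step; 333 probes with outlier flags were left out and saturated probes kept. Genes and distances come from the Dnmt1-KO files' annotation, named through RefSeq accessions (GRCm38.p6, 17552 of 18265 matched). Windows, thresholds and errors are as given above, and the window rule was tested on simulated data. The text names the 6 members, promoters ranked among or just after them, nearest neighbours, the 3 most alike in level, list extremes, and Rybp, Eed and Dnmt1. Members and lists were chosen with earlier results of these data known. The alternatives were other background correction (limma 3.58.1, normexp, offset 50), the value table, centring, spread, GC trend (lowess, span 0.3), windows, flags and dim probes. Analyses used Python 3.11.15, numpy 2.4.6, pandas 2.3.3 and statsmodels 0.14.6.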

Additional observations from a re-analysis of the deposited data

How the results depend on the processing

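No paired analysis was possible because each promoter had 1 array per genotype and no test was made. With normexp the 1 member bound in Eed-KO was Sfi1 in place of Cntln. Members bound in WT went from 6 to 5 with normexp, and also with windows chosen in Dnmt1-KO alone. In both settings Mpp5 was unbound in WT, at 0.72 and 0.87. Eed-KO minus WT stayed below 0 at each of the 6 members under all 12 alternatives, 1 of them (the median of the 6 probe differences) chosen after seeing the data; the median over members ran from -0.78 to -0.32, the weakest with all probes of the gene. With all probes of the gene 0 members were bound in Eed-KO, Dnmt1-KO or WT, and 0 promoters were lower and 0 higher by 0.5, since the mean then covers flanks; Dnmt1-KO minus Eed-KO had a median of 0.14 (Mpp5 -0.0040, Trim68 -0.17), and Dnmt1-KO minus WT of -0.095 (Mpp5 -0.196, Mfsd1 -0.043). Promoters lower and higher by 0.5 in Eed-KO numbered 9 and 29 with normexp, 42 and 13 at 1 spread, 41 and 7 at 1 spread with the GC trend removed, and 48 and 90 with windows of 4 probes; centred on the mode 37 were lower.

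At 1 spread 2 members were bound in Dnmt1-KO, Dnmt1-KO minus WT had a median of -0.65 (Cntln -0.82, Mpp5 -0.62, Mfsd1 -0.46), and Dnmt1-KO minus Eed-KO of 0.082 (Cntln -0.078). With the GC trend removed 3 were bound and Mpp5 lay at -0.43 against WT. With both, 2 were bound, Dnmt1-KO minus WT had a median of -0.74 (Klhl9 -0.091, Cntln -0.81, Mpp5 -0.82, Mfsd1 -0.48), and Dnmt1-KO minus Eed-KO of 0.0029 (Cntln -0.057, Mpp5 -0.024, Trim68 -0.052). The cause of these reversals was not tested. Windows were placed anew in these settings. Cntln and Mpp5 windows shared 4 of 6 probes with the main windows at 1 spread, and 3 once the GC trend was removed. The scanner software called input well above background at 88.1% (array 1) and 85.8% (array 2) of Dnmt1-KO probes with a multiplier of 13, and at 99.9% or more in Eed-KO and in WT with 2.6, so these shares are not comparable. Without the probes it did not call, the medians over members were the same to 2 decimals. Only the Klhl9 and Trim68 windows held such probes, and neither gene sets these medians. Members bound in Dnmt1-KO went from 5 to 4, and promoters lower by 0.5 in Eed-KO from 22 to 16. Dnmt1-KO minus Eed-KO at Trim68 went from 0.62 to 0.31.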
